A study of Mus with 6 samples.

Results

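Solute carriers are the membrane proteins, with gene symbols that begin with Slc, that carry sugars, amino acids, ions, nucleotides and vitamins across cell and organelle membranes without hydrolysing ATP themselves. Here the 115 Slc genes whose counts could be tied to their own label were described in knee chondrocytes of wild-type (WT) mice and of mice with a conditional knockout of Sirt6 (Sirt6 cKO), among 11659 genes in the count table. The genes were taken by symbol, as Slc followed by a family number up to 52, from rows 1 to 1768 and 3211 to 8064 of the table, and the rule used no measured difference. Slco genes were not included. The 115 genes came from 36 families, 33 of them from the first stretch of rows and 82 from the second. A further 46 Slc labels stood in rows where counts could not be shown to line up with labels and were not analysed here. RefSeq holds 373 protein-coding Slc genes of these families, and 213 had no row in the table. In the 2 stretches used, Spearman's rho between a row's exon length and its own mean count was 0.250 and 0.295, and between exon length and the count 1 row further down 0.0253 and 0.0405. In the rows between them rho was -0.002 for the same row and 0.266 for the next. These relations are across genes, which are not independent replicates.

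Both groups of 3 samples were C57BL/6J chondrocytes from knee cartilage of 12-week-old mice, and the study's methods describe primary chondrocytes released from dissected articular cartilage by enzymes and used at the first passage. Sirt6 cKO mice carried Sirt6 flox/flox with Col2a1-CreERT2, a tamoxifen-activated Cre driven by the promoter of a cartilage collagen gene, and the controls are labelled wild type, with no mention of a floxed allele or of Cre. The study's data statement speaks of chondrocytes from 3 control and 3 knockout mice, while the labels tie no sample to a mouse, and p-values measure the spread between these samples. Between 25726958 and 30156935 reads were counted per sample. Sirt6, the targeted gene, had normalized counts of 9704 to 12264 in WT against 640 to 1039 in Sirt6 cKO samples (log2 fold change -3.69, standard error (SE) 0.21, adjusted p = 8e-06, edgeR's quasi-likelihood test). WT replicate 1 stood apart from the other WT samples, with a correlation of log2 counts of 0.969 and 0.971 to them against 0.993 between those, and where leaving it out changes the call of a gene described here, that is stated. Chondrocyte markers had 5 of 16 listed genes in the rows used, and Col2a1 and Acan were not analysed here. The summed level of the 5 was 47.4 to 52.2 RPKM in WT and 89.4 to 109 in Sirt6 cKO samples. Most of it was Sox9, with 44.7 to 49.4 RPKM in WT and 59.6 to 90.3 in Sirt6 cKO samples. Of the 5, 4 were higher, and Col9a3 went the other way without passing (-0.53, adjusted p = 0.0756). Over all tested genes 22.5% were higher and 24.3% lower. Of the 9 listed synovial fibroblast markers 8 had such rows, 5 were higher and none lower, and their summed level was 1405 to 1430 RPKM in WT and 4345 to 4943 in Sirt6 cKO samples. Of the lists for other cell types, only Runx2 (osteoblast) and Cd68 (macrophage) had a row used here, and neither passed the test. No marker with a row used here was at 0 in all samples. The part of these markers in the values of the Slc genes was not tested, and in bulk RNA a different share of cells and a different amount of RNA per cell cannot be told apart.

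Cartilage has no blood vessels, so chondrocytes take nutrients that diffuse through the matrix, and they rely largely on glucose and glycolysis. They also import sulfate and send nucleotide sugars into the Golgi to build sulfated proteoglycans, and handle phosphate where matrix mineralizes. Loss of several of these carriers causes skeletal dysplasia in humans. A normalized count is the read count scaled by edgeR's TMM factors to the mean library size. A level in RPKM is the count divided by exon length in kilobases and by the scaled library size, and is the scale on which genes were compared with each other. A log2 fold change is the fitted difference of Sirt6 cKO from WT, and a gene passed the test at an adjusted p under 0.05 over all genes tested.

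All 115 Slc genes had enough counts to be tested, as had 6617 of the 6623 rows used. In Sirt6 cKO chondrocytes 43 of them were higher and 18 lower, which are 37.4% and 15.7% of the Slc genes. Over the 11246 genes tested the shares were 22.5% and 24.3%. A fold change over 2 was reached by 18 of the higher genes, 15.7% against 8.72% of all tested genes, and by 5 of the lower, 4.35% against 7.15%. The median log2 fold change was 0.24 over the Slc genes and 0.00 over all tested genes. In the rows used, where 6617 genes were tested, 1587 were higher and 1706 lower. In 69 of the 115 genes the WT and Sirt6 cKO samples did not overlap, and 61 of these passed the test. This share of 60.0% was close to the 60.9% of all tested genes. Without WT replicate 1 the numbers were 49 higher and 21 lower, since 11 further genes passed and 2 no longer did. Among the fits that left out 1 sample they were lowest without Sirt6 cKO replicate 1, with 29 and 10. Ordered by class, higher genes outnumbered lower ones among amino acid transporters (9 and 1 of 17), metal ion transporters (4 and 0 of 10), glucose and lactate transporters (4 and 0 of 8) and carriers of other substrates (11 and 5 of 26). The numbers were closer among mitochondrial carriers (6 and 5 of 22), nucleotide sugar transporters (3 and 2 of 13) and phosphate and sulfate transporters (2 and 2 of 6). Among transporters of sodium, potassium, calcium, chloride, bicarbonate and protons they were 4 and 2 of 10. The share of a substrate class that passed ran from 38.5% (nucleotide sugars) to 66.7% (phosphate and sulfate), against 46.8% of all tested genes.

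**Figure D1:**
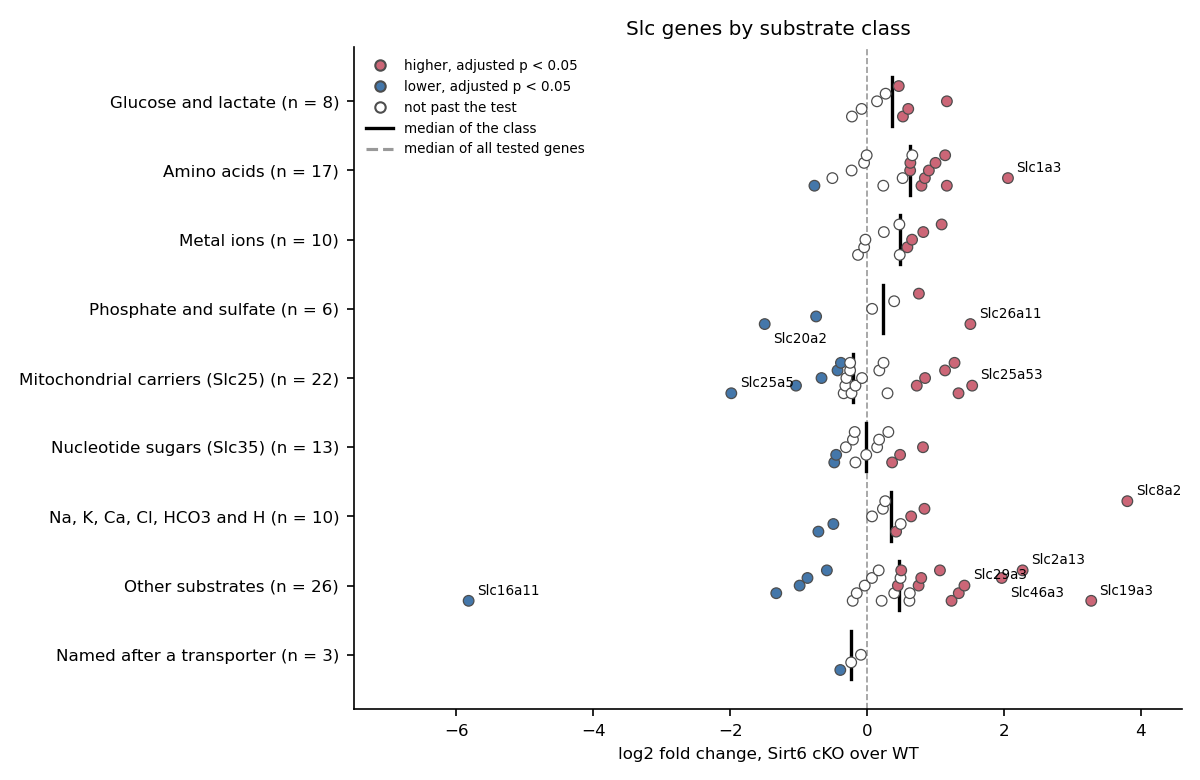
Log2 fold change of each of the 115 Slc genes in Sirt6 cKO over WT chondrocytes, 1 point per gene, by substrate class. Red and blue points passed edgeR's test as higher (43 genes) or lower (18 genes), open points did not, thick bars are class medians and the dashed line is the median of all tested genes. The amino acid class has the rightmost median, at 0.63.

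The levels of the Slc genes spanned from 0.55 to 192 RPKM, with a median of 8.30, against 12.2 for all genes in the rows used. A few genes carried much of the total. The 4 highest, Slc3a2, Slc25a4, Slc7a5 and Slc25a5, made up 28.9% of the summed RPKM of all 115. Slc3a2, the heavy chain that brings several amino acid transporters to the cell surface, had a mean level of 192 RPKM. Slc25a4 and Slc25a5 encode ADP/ATP carriers of the inner mitochondrial membrane, and had mean levels of 187 and 105 RPKM. Slc7a5, a transporter of large neutral amino acids that pairs with Slc3a2, had 175 RPKM. These 4 genes all passed the test, the Slc3a2 and Slc7a5 pair as higher and the Slc25a4 and Slc25a5 pair as lower. Of the next 4, Slc25a39, Slc1a5, Slc2a1 and Slc6a6, only Slc1a5 passed. Across the 115 genes, a higher level went with a lower fold change (Spearman's rho -0.327). The same relation was -0.668 over the 22 mitochondrial carriers, and the genes share the 6 libraries. Over all 11246 tested genes it was -0.243. Outside the rows used a count may be divided by the exon length of another gene, so this value is not a like comparison.

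**Figure D2:**
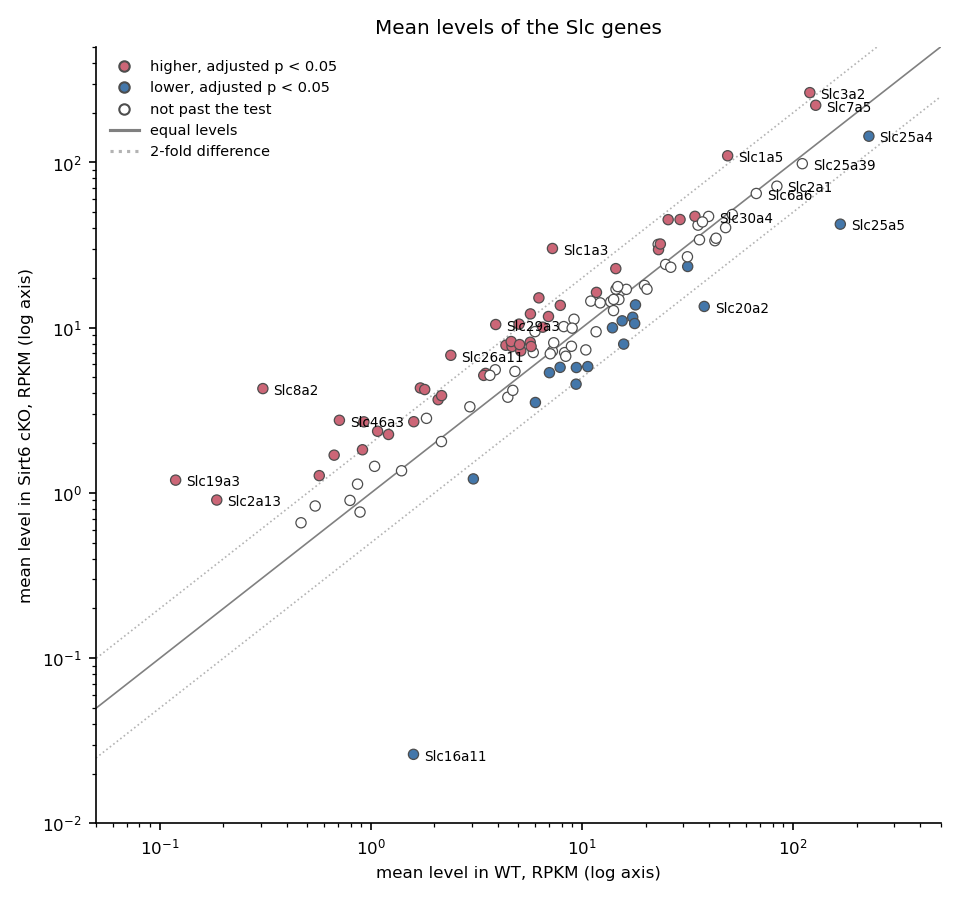
Mean level of each Slc gene in WT (horizontal axis) and in Sirt6 cKO chondrocytes (vertical axis), in RPKM on log axes, with the line of equal levels and dotted lines at a 2-fold difference. Slc3a2, Slc7a5 and Slc1a5 lie above the line at high levels and Slc25a4, Slc25a5 and Slc20a2 below it, and Slc16a11 lies far below it, at 0.026 RPKM in Sirt6 cKO.

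Glucose enters most cells through Slc2 transporters, and lactate leaves through Slc16 carriers. The 2 main surface transporters measured here did not pass the test. Slc2a1, the widely expressed glucose transporter, had 8094, 6301 and 6232 normalized counts in WT against 6185, 5146 and 6351 in Sirt6 cKO samples, a log2 fold change of -0.22 (SE 0.15, adjusted p = 0.258), or -0.09 without WT replicate 1. Slc16a1, which carries lactate and other monocarboxylates with a proton, had 4475, 4479 and 4799 in WT against 4208, 3684 and 5110 in Sirt6 cKO samples (-0.08, SE 0.15, adjusted p = 0.678). In both genes the samples of the genotypes overlapped. Of the other members 4 rose. Slc50a1, a sugar transporter of the SWEET family, rose from 1445 ± 164 to 1990 ± 86.8 normalized counts (SD, n = 3), a log2 fold change of 0.46. Slc2a10, whose loss causes arterial tortuosity in humans, rose from 583 ± 35.7 to 838 ± 115 (0.52, adjusted p = 0.0222), and Slc2a6, a lysosomal member of the glucose transporter family, rose by 1.51-fold. Slc45a3 had the largest change of the class, with 46.8 to 68.0 normalized counts in WT against 103 to 138 in Sirt6 cKO samples. It has too few counts for the naming rule and was picked after its values were seen. Slc2a8 and Slc37a4, the carrier of glucose 6-phosphate into the endoplasmic reticulum, had log2 fold changes of 0.27 and 0.14 and did not pass. The class count fell in some fits with a sample left out. Of the 8 genes, 1 was higher without WT replicate 3 or without Sirt6 cKO replicate 1, and 2 without WT replicate 2 or without Sirt6 cKO replicate 2. The log2 fold changes in the fits with a sample left out were 0.51 to 0.72 for Slc2a6, 0.45 to 0.65 for Slc2a10 and 0.40 to 0.55 for Slc50a1. Of the companion genes in the rows used, the hexokinases Hk1 and Hk2 and the lactate dehydrogenase Ldhb, none passed, with log2 fold changes of 0.10, 0.01 and 0.18.

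The amino acid class showed 9 of 17 genes higher and 1 lower, with a median log2 fold change of 0.63. The largest change was that of Slc1a3 (ENSMUSG00000005360, chromosome 15 from 8634124 to 8710764), a sodium-driven glutamate and aspartate transporter. It had 1531, 1847 and 1956 normalized counts in WT against 7201, 7086 and 7916 in Sirt6 cKO samples. The 3 Sirt6 cKO samples lay close together and far above WT, a 4.16-fold difference (log2 fold change 2.06, SE 0.14, adjusted p = 1.77e-05, between 1.96 and 2.14 over the alternative fits). Slc1a5 (ENSMUSG00000001918, chromosome 7 from 16781346 to 16798274), which takes up glutamine and other neutral amino acids, had 5894, 5743 and 5924 in WT against 11284, 9484 and 18590 in Sirt6 cKO samples. Its log2 fold change was 1.16 (SE 0.23, adjusted p = 0.00383).

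Slc3a2 (ENSMUSG00000010095, chromosome 19 from 8706882 to 8723369) had 11835, 9428 and 9377 normalized counts in WT against 20565, 14341 and 32602 in Sirt6 cKO samples, a log2 fold change of 1.14 (SE 0.27, adjusted p = 0.00859). Its light chain Slc7a5 (ENSMUSG00000040010, chromosome 8 from 121881150 to 121907694) had 15835, 12107 and 13004 in WT against 21660, 15950 and 33370 in Sirt6 cKO samples (0.79, SE 0.25, adjusted p = 0.0282). The genotypes did not overlap in either gene, and Sirt6 cKO replicate 3 was the highest sample in both. The ratio of the Slc7a5 level to the Slc3a2 level was 1.02 to 1.11 in WT and 0.817 to 0.887 in Sirt6 cKO samples. Slc7a11, the cystine and glutamate exchanger that also pairs with Slc3a2, had 1022, 1424 and 1318 in WT against 1405, 1199 and 2792 in Sirt6 cKO samples, so that the groups overlapped and the gene did not pass (0.52, SE 0.30, adjusted p = 0.184). Without Sirt6 cKO replicate 3 the log2 fold change was 0.79 for Slc3a2 (adjusted p = 0.0199), 0.84 for Slc1a5 (adjusted p = 0.00383) and 0.07 for Slc7a11. Slc7a5 then no longer passed (0.48, adjusted p = 0.0793), nor did Slc7a1, a transporter of cationic amino acids, which went from 0.63 (adjusted p = 0.0437) to 0.34 (adjusted p = 0.104). Slc7a5 and Slc7a1 also did not pass without WT replicate 2, WT replicate 3 or Sirt6 cKO replicate 1, and Slc7a1 not without WT replicate 1 or with limma-voom. The 9 higher genes had their highest Sirt6 cKO value in replicate 3 in 6 cases (66.7%). The share was 32.6% over the 43 higher Slc genes and 39.8% over all tested genes.

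The other 4 higher genes were less abundant. Slc38a9, an arginine-sensing transporter of the lysosome, rose by 1.00 on the log2 scale (adjusted p = 0.00167), and Slc38a7, a lysosomal carrier of glutamine and asparagine, by 0.63 (adjusted p = 0.00703). Slc36a4, of the proton-assisted amino acid transporters, had 0.84 (adjusted p = 0.00261) and Slc7a7, another light chain of Slc3a2, 0.90 (adjusted p = 0.0153), though Slc7a7 did not pass without WT replicate 3 or without Sirt6 cKO replicate 1 or 2, and 10.6% of its exon bases are also exon of Oxa1l on the other strand. Slc36a1 and Slc15a4, also known from lysosomes, did not pass, with -0.01 and -0.23. Slc16a10, a carrier of aromatic amino acids, was the 1 lower gene of the class. It had normalized counts of 803 to 1057 in WT against 456 to 594 in Sirt6 cKO samples (-0.77, SE 0.17, adjusted p = 0.00646). Slc6a6, the taurine transporter and the fourth most abundant gene of the class at 66.0 RPKM, did not pass (-0.04, adjusted p = 0.811). Slc7a2, a cationic amino acid carrier, had 0.66 and passed only with the replicate number as a block (adjusted p = 0.0120), with DESeq2 and without WT replicate 2. Among companion genes of the amino acid response, Sesn2, a leucine sensor, was higher (0.76, adjusted p = 0.00565), and the transcription factor Atf4 (-0.18), its target Asns (-0.26) and the kinase gene Eif2ak4 (0.25) did not pass.

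Metal ion transporters had 4 higher genes and none lower among 10, with a median log2 fold change of 0.47. Slc30a9 (ENSMUSG00000029221, chromosome 5 from 67306955 to 67358565), a zinc carrier family member found in mitochondria, had 1263, 1819 and 1761 normalized counts in WT against 3249, 3503 and 3553 in Sirt6 cKO samples. All Sirt6 cKO samples stood well above WT, with a log2 fold change of 1.09 (SE 0.16, adjusted p = 0.00103). Slc30a1, the zinc exporter of the cell surface, rose from 516 ± 45.3 to 776 ± 148 (SD, n = 3; 0.59, adjusted p = 0.0240), but did not pass without WT replicate 2, Sirt6 cKO replicate 1 or Sirt6 cKO replicate 3. Slc39a11, a ZIP family zinc transporter, rose by 1.58-fold (adjusted p = 0.00953), and Slc41a3, of a family of magnesium transporters, by 1.76-fold (adjusted p = 0.0143, and not past the test without Sirt6 cKO replicate 1). Slc39a3, another ZIP transporter, was near the threshold, with 0.48 and an adjusted p of 0.0515, and it passed in 9 of 14 alternative fits, among them those without WT replicate 1 (adjusted p = 0.00281) and with the replicate number as a block (adjusted p = 0.0219). Slc39a13, a ZIP transporter whose loss gives a skeletal and connective tissue disorder, had 4054, 3084 and 3319 normalized counts in WT against 3476, 3625 and 3042 in Sirt6 cKO samples, which overlapped (-0.04, SE 0.15, adjusted p = 0.827). The iron exporter Slc40a1 was low, at 55 to 126 raw counts in WT against 125 to 169 in Sirt6 cKO samples, and did not pass. The zinc carrier Slc30a4 was the most abundant of the class at 43.5 RPKM, and WT replicate 1, with a normalized count of 3976, lay far under the other WT samples at 7553 and 7286. Its log2 fold change of 0.24 did not pass, and was 0.0018 without WT replicate 1 and 0.025 without Sirt6 cKO replicate 3. Of the metal companion genes in the rows used, Mt1, a metallothionein that binds zinc and copper, fell from 3767 to 1500 normalized counts on average (-1.33, adjusted p = 0.000409). Hmox1, which frees iron from heme, rose (0.93, adjusted p = 0.0104), while Mtf1, the metal-sensing transcription factor, and Cp, a copper-carrying ferroxidase, did not pass.

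The phosphate and sulfate class had 2 higher and 2 lower genes among 6. Both sodium-phosphate cotransporters of the Slc20 family, which supply phosphate to most cells, were lower. Slc20a2 (ENSMUSG00000037656, chromosome 8 from 22476700 to 22569607) had 4763, 3613 and 3566 normalized counts in WT against 1291, 1164 and 1777 in Sirt6 cKO samples, so that the lowest WT sample was above the highest Sirt6 cKO sample. The fall was 2.82-fold, with a log2 fold change of -1.50 (SE 0.20, adjusted p = 0.000526). Slc20a1 had 2422, 3052 and 3075 in WT against 1483, 1403 and 2214 in Sirt6 cKO samples (-0.75, SE 0.20, adjusted p = 0.0146), and did not pass without Sirt6 cKO replicate 1 or without Sirt6 cKO replicate 2. In Slc20a1, 8.10% of exon bases overlap an unnamed gene on the other strand. The summed level of the pair was 53.2 to 60.5 RPKM in WT and 19.9 to 30.8 in Sirt6 cKO samples.

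The 2 higher genes belong to the Slc26 family. Slc26a2, the sulfate transporter of chondrocytes whose loss causes diastrophic dysplasia, had 341, 748 and 612 normalized counts in WT against 917, 1111 and 850 in Sirt6 cKO samples. WT replicate 1 was the lowest of all, and the other WT samples lay nearer to the Sirt6 cKO samples without reaching them. The log2 fold change was 0.76 (SE 0.26, adjusted p = 0.0426), and 0.50 without WT replicate 1 (adjusted p = 0.0235). The gene did not pass with total counts alone, without WT replicate 3 or without any one of the Sirt6 cKO samples. Slc26a11 (ENSMUSG00000039908, chromosome 11 from 119355557 to 119381079), an anion transporter of the same family, had 224, 267 and 253 in WT against 742, 681 and 697 in Sirt6 cKO samples. Its 2.85-fold increase (1.51, SE 0.15, adjusted p = 0.00011) passed in all 14 alternative fits. The sugar phosphate exchangers Slc37a2 (0.39) and Slc37a3 (0.07) did not pass, and Slc37a2 passed without WT replicate 1 (0.75, adjusted p = 0.0369). Other genes of phosphate handling rose. Xpr1, the phosphate exporter, rose by 1.18 on the log2 scale (adjusted p = 0.00683), and Enpp1, which makes the mineralization inhibitor pyrophosphate, rose from 148 to 836 normalized counts on average (2.49, adjusted p = 0.000227). These were the 2 of 9 listed phosphate and sulfate companion genes with rows used here.

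**Figure D3:**
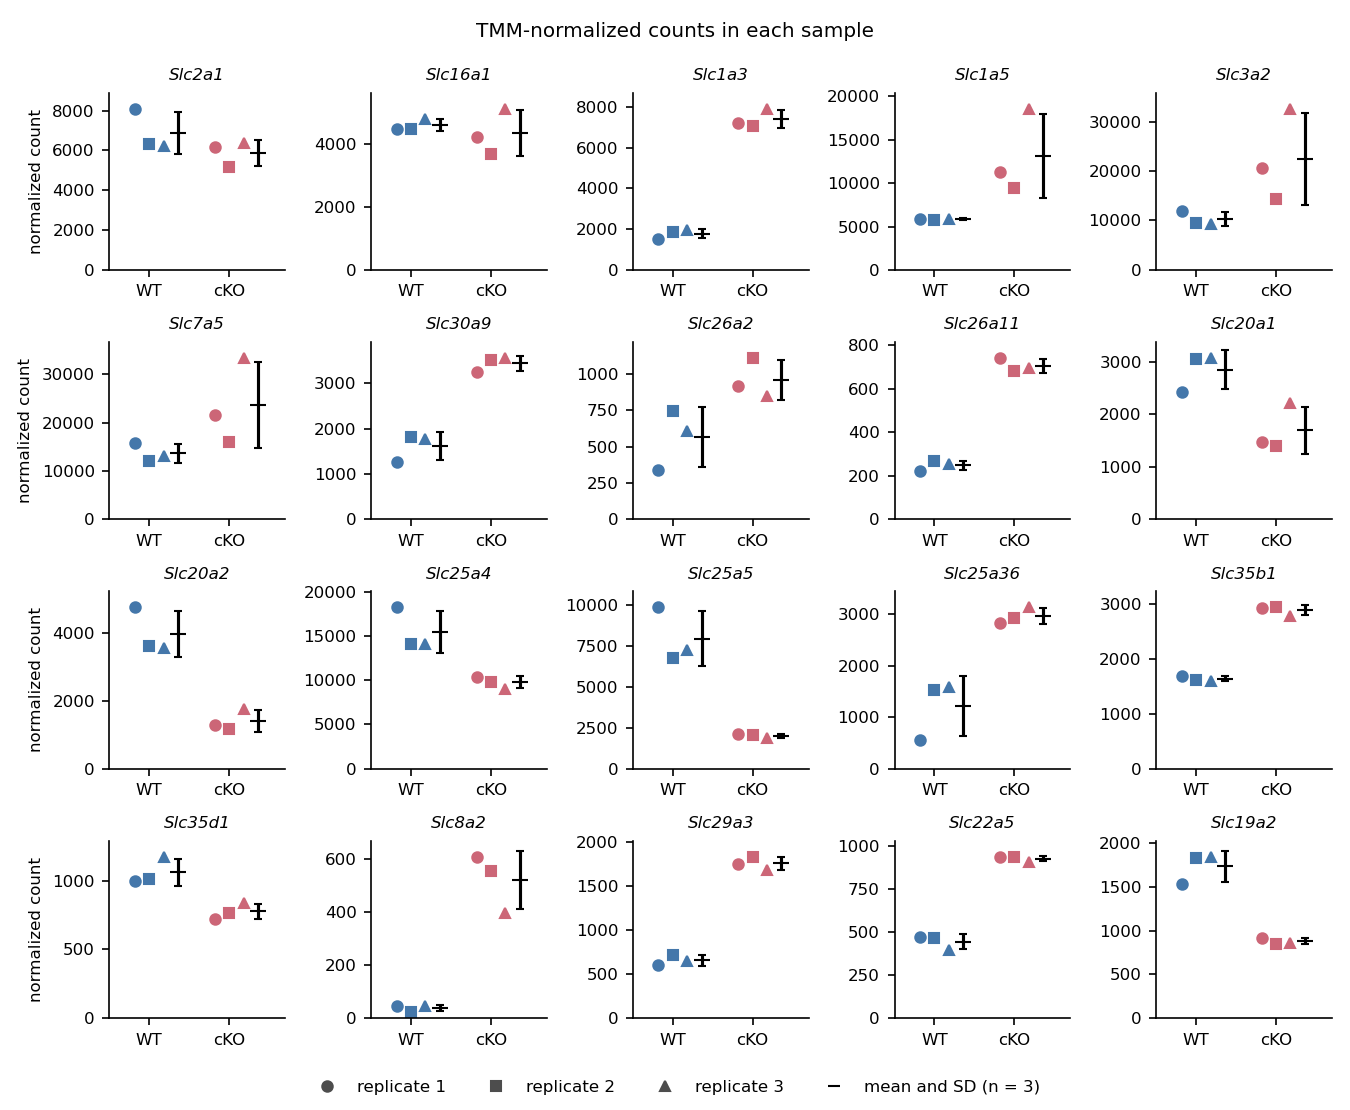
TMM-normalized counts of 20 Slc genes in each sample, 3 WT (blue) and 3 Sirt6 cKO (red), each axis starting at 0, with the mean and SD of each genotype in black. Slc1a3, Slc26a11, Slc29a3 and Slc8a2 stand apart upwards and Slc20a2 and Slc25a5 downwards, Slc2a1 and Slc16a1 overlap, and replicate 3 is the highest Sirt6 cKO sample for Slc1a5, Slc3a2 and Slc7a5.

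Mitochondrial carriers of the Slc25 family move metabolites across the inner mitochondrial membrane. Of 22 genes, 6 were higher and 5 lower, and the 2 most abundant were among the lower ones. The 50% that passed was near the 46.8% of all tested genes. Slc25a4 (ENSMUSG00000031633, chromosome 8 from 46206797 to 46211284), the ADP/ATP carrier of muscle and other tissues, had 18220, 14084 and 14127 normalized counts in WT against 10395, 9803 and 9059 in Sirt6 cKO samples (-0.67, SE 0.14, adjusted p = 0.00549). Slc25a5 (ENSMUSG00000016319, chromosome X from 36795651 to 36798807), the ADP/ATP carrier of dividing cells, had 9839, 6725 and 7214 in WT against 2100, 2053 and 1855 in Sirt6 cKO samples, which is 3.96-fold lower (-1.98, SE 0.17, adjusted p = 5.43e-05). In both genes WT replicate 1 was highest and all Sirt6 cKO samples lay under all WT samples. The level of Slc25a5 was 0.683 to 0.772 of that of Slc25a4 in WT and 0.289 to 0.299 in Sirt6 cKO samples, and the summed level of the pair was 350 to 477 RPKM in WT and 173 to 198 RPKM in Sirt6 cKO samples. RefSeq lists a pseudogene of Slc25a5 on chromosome 14, so reads of this gene may be split by the counting.

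Of the other lower carriers, Slc25a26, which brings S-adenosylmethionine into mitochondria, had 409 to 702 normalized counts in WT against 199 to 281 in Sirt6 cKO samples (-1.04, adjusted p = 0.00876). In Slc25a26, 6.27% of exon bases overlap Lrig1 on the other strand. Slc25a12, the aspartate and glutamate exchanger, and Slc25a28, an iron carrier of mitochondria, had -0.38 (adjusted p = 0.0380) and -0.43 (adjusted p = 0.0384), and neither passed with upper-quartile factors or without WT replicate 3 or any one of the Sirt6 cKO samples. Slc25a12 did not pass without WT replicate 2 either, nor with the replicate number as a block (adjusted p = 0.0521). In each of the settings that both failed, 3 carriers of the class were lower in place of 5. The higher carriers were far less abundant than the ADP/ATP carriers. Slc25a36, a pyrimidine nucleotide carrier, had 552, 1533 and 1577 in WT against 2829, 2924 and 3130 in Sirt6 cKO samples (1.28, SE 0.34, adjusted p = 0.0138). WT replicate 1 was under the other WT samples by far, and without it the log2 fold change was 0.93. Slc25a53 and Slc25a35, carriers without an assigned substrate, rose by 2.91-fold and 2.52-fold, and in Slc25a53 too WT replicate 1 was low, with 128 normalized counts against 256 and 252. Slc25a23, an ATP-magnesium and phosphate carrier, Slc25a42, a coenzyme A carrier, and Slc25a20, which brings acylcarnitines in for fatty acid oxidation, had log2 fold changes of 1.14, 0.85 and 0.73, and Slc25a20 did not pass without WT replicate 3.

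Several abundant carriers did not pass, among them Slc25a39, a glutathione carrier (110.7 RPKM in WT and 98.3 in Sirt6 cKO, log2 fold change -0.17), Slc25a1, the citrate carrier (-0.34), Slc25a11, an oxoglutarate and malate carrier (-0.25), and the iron carrier Slc25a37 (-0.25). Without WT replicate 1, Slc25a37 passed as lower (-0.38, adjusted p = 0.0272), whereas the values were 0.03 for Slc25a39, -0.15 for Slc25a1 and -0.02 for Slc25a11. In Slc25a11, 8.92% of exon bases overlap Rnf167 on the other strand. The Slc25 genes together took 0.176% to 0.207% of all counts in WT against 0.149% to 0.153% in Sirt6 cKO samples. Without Slc25a4 and Slc25a5 the other 20 carriers took 0.1015% to 0.1158% in WT and 0.1063% to 0.1103% in Sirt6 cKO samples, which overlapped. Of the mitochondrial companion genes in the rows used, Ucp2, an uncoupling protein of the same family, was lower (-1.86, adjusted p = 2.5e-05). Vdac1, the main pore of the outer membrane, and Mtch2, a carrier-like outer membrane protein, were lower as well, with -0.89 and -0.46. Mpc2, a subunit of the pyruvate carrier, was higher (0.61, adjusted p = 0.0126), and Vdac3 did not pass.

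Nucleotide sugar transporters of the Slc35 family supply the Golgi and endoplasmic reticulum with the activated sugars and sulfate donor that glycosaminoglycans are built from, and the family also holds members with other or unknown substrates. Of 13 genes, 3 were higher and 2 lower, none over 2-fold, and the median log2 fold change was -0.01. The 38.5% that passed lay under the 46.8% of all tested genes. Slc35b1 (ENSMUSG00000020873, chromosome 11 from 95384692 to 95391776), described as an ATP and ADP exchanger of the endoplasmic reticulum, changed most, with 1692, 1622 and 1595 normalized counts in WT against 2931, 2933 and 2776 in Sirt6 cKO samples. The samples of each genotype agreed closely, and the log2 fold change of 0.82 (SE 0.12, adjusted p = 0.000865) lay between 0.80 and 0.89 over the alternative fits. Slc35d1, a transporter of UDP-glucuronic acid and UDP-N-acetylgalactosamine whose loss impairs chondroitin sulfate synthesis and skeletal growth, was lower. It had 997, 1013 and 1173 in WT against 724, 765 and 837 in Sirt6 cKO samples (-0.45, SE 0.14, adjusted p = 0.0260), and did not pass without WT replicate 2, WT replicate 3, Sirt6 cKO replicate 1 or Sirt6 cKO replicate 2.

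Slc35b2, which carries the sulfate donor PAPS into the Golgi, had 3802, 2459 and 2396 in WT against 2561, 2307 and 2110 in Sirt6 cKO samples and did not pass (-0.31, SE 0.20, adjusted p = 0.218). Without WT replicate 1 its log2 fold change was -0.06. Slc35a2, the UDP-galactose transporter, did not pass either (0.31, adjusted p = 0.134), but passed without WT replicate 1 (0.40, adjusted p = 0.0326). The CMP-sialic acid transporter Slc35a1 had 0.48 (adjusted p = 0.0375), Slc35f5 had 0.36 (adjusted p = 0.0445) and Slc35f6 had -0.48 (adjusted p = 0.0419), each close to the threshold. Slc35f5 did not pass with the replicate number as a block (adjusted p = 0.0676) or without WT replicate 2. Slc35f6 did not pass with upper-quartile factors or without WT replicate 1 (adjusted p = 0.0516), and Slc35f6 and Slc35a1 not without Sirt6 cKO replicate 3. Without WT replicate 3, or without Sirt6 cKO replicate 1 or 2, Slc35b1 was the 1 higher gene of the class and none was lower. None of the 6 companion enzymes of nucleotide sugar supply in the rows used passed, with log2 fold changes from -0.25 for Ugdh, which makes UDP-glucuronic acid, to 0.32 for Gfpt1, which opens the hexosamine pathway.

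Among transporters of sodium, potassium, calcium, chloride, bicarbonate and protons, 4 of 10 genes were higher and 2 lower. Slc8a2 (ENSMUSG00000030376, chromosome 7 from 16130300 to 16160509), a sodium-calcium exchanger best known from neurons, had the largest increase of all 115 genes. It had 37, 25 and 46 raw counts in WT against 618, 582 and 410 in Sirt6 cKO samples, a 13.9-fold difference in normalized counts (log2 fold change 3.80, SE 0.28, adjusted p = 2.6e-05). Even so its level in Sirt6 cKO chondrocytes was 4.28 RPKM, under the median of the Slc genes. The chloride-bicarbonate exchangers moved apart. Slc4a3 rose from 1141 ± 175 to 2039 ± 155 normalized counts (SD, n = 3; 0.84, adjusted p = 0.00242). Slc4a2 fell from 2760 ± 247 to 1960 ± 208 (-0.49, adjusted p = 0.0188), with no pass without Sirt6 cKO replicate 1 or replicate 3, and 11.2% of its exon bases are shared with Fastk on the other strand. Among sodium-proton exchangers, Slc9a8 of the Golgi was higher (0.42, adjusted p = 0.0237, lost without any one sample other than WT replicate 1) and Slc9a5 lower (-0.71, adjusted p = 0.00301). Slc12a9 rose by 1.56-fold (adjusted p = 0.00464). Slc12a4, a potassium-chloride cotransporter and the most abundant of the class at 40.4 RPKM, did not overlap between the genotypes, with 4460 to 4852 in WT and 5187 to 5681 in Sirt6 cKO samples, but did not pass (0.23, adjusted p = 0.140). It passed without WT replicate 1 (0.27, adjusted p = 0.0271), and 8.40% of its exon bases overlap an unnamed gene on the other strand. Slc8b1, the sodium-calcium exchanger of mitochondria, had 0.26 and did not pass, but passed without Sirt6 cKO replicate 3 (0.40, adjusted p = 0.0485).

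The remaining 26 carriers, of vitamins, nucleosides, carnitine, choline and other compounds, had 11 higher and 5 lower genes, and 7 and 2 of these over 2-fold. Thiamine transporters moved in opposite directions. Slc19a2 fell from 1534, 1837 and 1845 normalized counts in WT to 918, 853 and 863 in Sirt6 cKO samples (-0.99, SE 0.13, adjusted p = 0.000634). Slc19a3 was nearly absent in WT, with raw counts of 2, 20 and 10, against 90, 49 and 186 in Sirt6 cKO samples (3.27, SE 0.67, adjusted p = 0.00440). The log2 fold change was 2.65 without Sirt6 cKO replicate 3 and 4.06 without WT replicate 2. Its Sirt6 cKO level of 1.20 RPKM was far under the 7.96 RPKM of Slc19a2. Folate carriers differed as well. Slc46a1, which takes up folate with a proton, rose by 2.35-fold (adjusted p = 0.00206), whereas Slc19a1, the reduced folate carrier, did not pass (-0.15, adjusted p = 0.614). Slc5a6, the sodium-driven carrier of biotin and pantothenate, fell from 351 ± 37.7 to 139 ± 18.7 normalized counts (SD, n = 3; -1.33, SE 0.19, adjusted p = 0.000722), and 9.92% of its exon bases overlap Atraid on the other strand.

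Slc29a3 (ENSMUSG00000020100, chromosome 10 from 60712072 to 60752794), a nucleoside transporter of lysosomes whose loss causes a histiocytosis with skin and skeletal signs in humans, had 599, 716 and 647 normalized counts in WT against 1748, 1828 and 1683 in Sirt6 cKO samples. The groups were tight and far apart (1.42, SE 0.13, adjusted p = 8.39e-05). Slc22a5, the carnitine transporter of the cell surface, rose from 444 ± 42.4 to 928 ± 16.2 (SD, n = 3; 1.06, adjusted p = 0.000528). Slc2a13, a proton-driven myo-inositol transporter, had 29.8 to 68.2 in WT and 204 to 233 in Sirt6 cKO samples, and Slc46a3, a lysosomal carrier, 34.2 to 69.2 in WT and 99.0 to 254 in Sirt6 cKO samples. Of the abundant members, the choline transporter Slc44a1 was higher (0.45, adjusted p = 0.0361) but not without WT replicate 3 or any one of the Sirt6 cKO samples, Slc22a23 did not pass (0.07), and Slc6a8, which takes up creatine, was lower (-0.59, adjusted p = 0.0141) but not without Sirt6 cKO replicate 1 or replicate 2. Slc10a3 fell by 0.87 on the log2 scale (adjusted p = 0.00426) and shares 12.8% of its exon bases with another gene on the same strand. Slc10a7, whose loss gives a skeletal dysplasia, had 1184, 1355 and 1279 in WT against 1462, 1685 and 1276 in Sirt6 cKO samples, which overlapped (0.21, adjusted p = 0.259).

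The deepest decrease of all 115 genes was that of Slc16a11, a monocarboxylate carrier family member (ENSMUSG00000040938, chromosome 11 from 70212752 to 70216417), which has too few counts for the naming rule and was picked after its values were seen. It had 115, 124 and 97 raw counts in WT against 0, 4 and 2 in Sirt6 cKO samples (log2 fold change -5.82, SE 0.56, adjusted p = 9.23e-05). The Sirt6 cKO counts are near 0, and the fitted value ranged from -6.73 to -5.28 over the alternative fits that gave one. In the same family Slc16a5, also picked after its values were seen, rose from 62, 69 and 76 raw counts in WT to 182, 205 and 170 in Sirt6 cKO samples. Apart from the carriers, 3 of the 115 genes encode proteins named after a transporter, of which Slc4a1ap was lower (-0.39, adjusted p = 0.0442, and 0.0606 with the replicate number as a block, with the call also lost in 7 other fits), and Slc7a6os and the scaffold protein Slc9a3r1 did not pass.

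**Figure D4:**
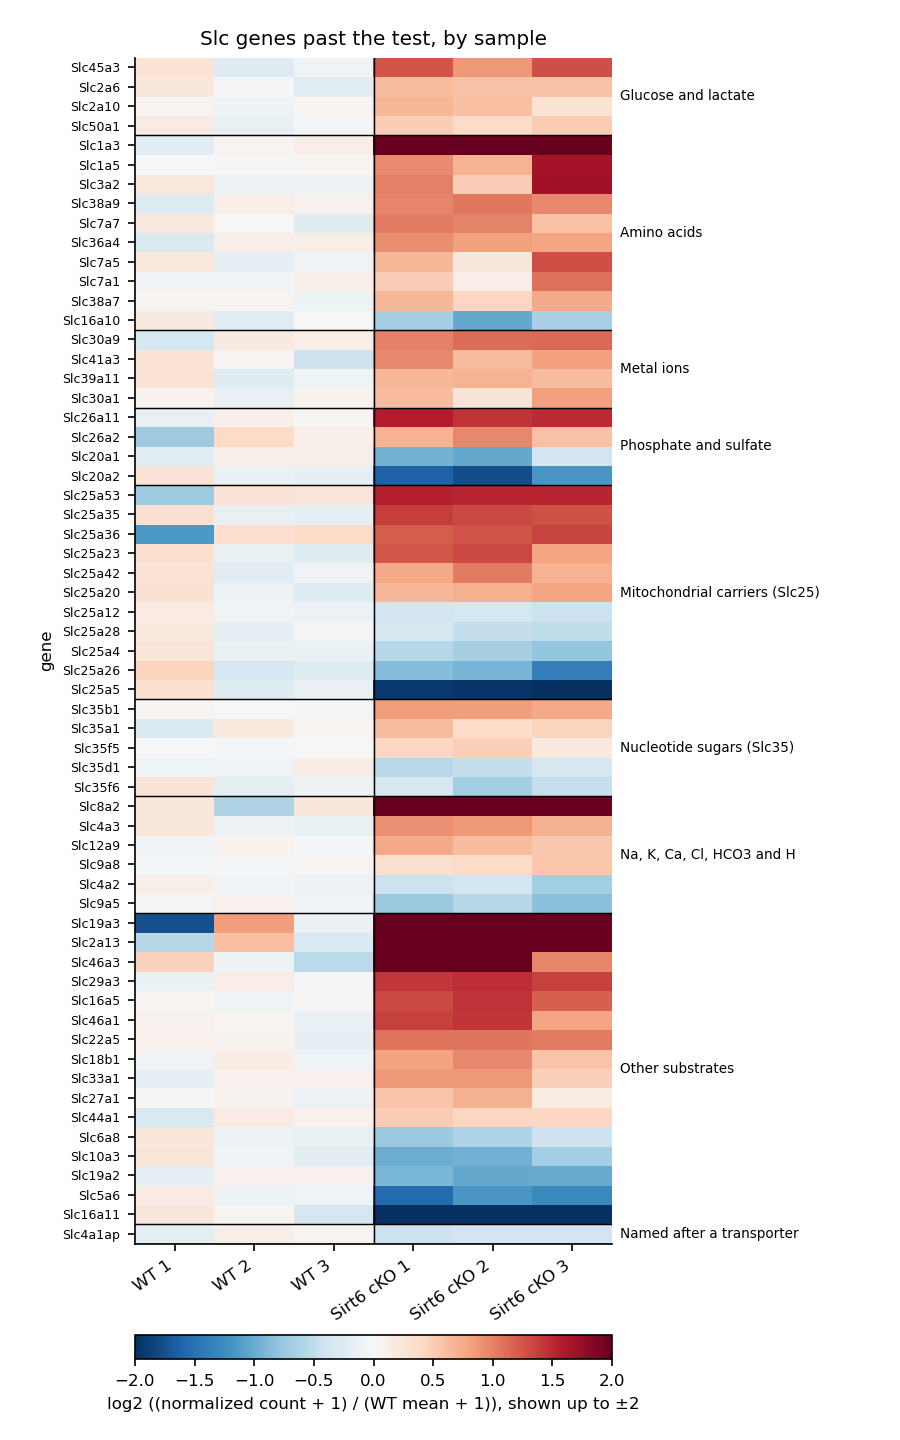
The 61 Slc genes past edgeR's test in each of the 6 samples, as the log2 ratio of the normalized count to the WT mean (with 1 added to both, and colours capped at 2 in either direction), red above and blue below, ordered by class and by fold change. WT replicate 1 differs from the other WT samples in Slc25a36, Slc25a53, Slc26a2 and Slc19a3, and Sirt6 cKO replicate 3 is the strongest of its genotype in Slc1a5, Slc3a2, Slc7a5 and Slc7a1.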

How the data were processed

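RNA-seq read counts of 3 WT and 3 Sirt6 cKO samples were used. The authors deposited raw counts per Ensembl gene, not normalized, with exon positions and summed exon length. The submitters' processing notes list cutadapt, HISAT2 2.0.5 and StringTie, and name a human genome build although the exon positions fit mouse GRCm38. The counter and its strand setting are not given in the sources used here. For libraries, the methods name a strand-specific NEBNext kit, whereas the labels name a KAPA stranded kit.

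Rows were named by position against RefSeq GRCm38.p6 (at least 0.5 of the joint span shared), which named 10609 of 11659 rows. The reference pairs no Ensembl identifiers, so naming by identifier was not run. A symbol found by 2 rows was kept by the better match. No sequence was printed. The genes, classes and lists were chosen with earlier results of these data known. The 3 proteins named after a transporter were set apart from the classes afterwards. Named genes were, per class, up to 3 largest increases and decreases averaging 100 or more normalized counts, the 3 highest levels, and well-known transporters. All other genes named were chosen after their values were seen. A gene that this rule names is not reported here.

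Counts were fitted on the whole table with edgeR 4.0.16 in R 4.3.3 (TMM, filterByExpr, glmQLFit, glmQLFTest, genotype as the only term, Benjamini-Hochberg adjustment). Standard errors were taken as |log2 fold change| over √F. In simulated data 200 of 11151 tested genes were changed, equally many up and down. There the fit called 80 of 100 genes changed 2-fold, 100 of 100 changed 4-fold and 6 of the unchanged genes. In the real data 46.8% of tested genes passed, so the simulation does not show how the fit behaves with that many changes. Deviations of samples with the same replicate number correlated at 0.262, 0.104 and 0.136, so the number, which comes from the labels, was also used as a block. The other alternatives were DESeq2 1.42.0, limma-voom (limma 3.58.1), RLE and upper-quartile factors, total counts alone, 2 other filters, leaving out each sample and an adjusted p under 0.01.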

Additional observations from a re-analysis of the deposited data

How the results depend on the processing

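Of the 61 Slc genes past the test, 38 passed in each alternative fit that gave a value, 28 of them higher and 10 lower, and none of the 61 changed direction. All 23 with a fold change over 2 were among the 38. The calls of 23 genes were lost in at least 1 fit, and for 15 of these only when a sample was left out. Leaving out single samples gave 29 to 49 higher and 10 to 21 lower genes, and 17 to 20 and 4 to 6 over 2-fold. At an adjusted p under 0.01, 27 genes were higher and 10 lower. A fit blocked on replicate number called 44 higher (42 shared with the unblocked fit) and 16 lower (16 shared). The block ended the calls of Slc35f5, Slc25a12 and Slc4a1ap and added Slc7a2 and Slc39a3. With upper-quartile factors 45 genes were higher and 14 lower, and the median of all genes moved from 0.00 to 0.08. DESeq2 gave 45 and 18.

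Direction changed in at least 1 alternative fit in 15 of the 115 genes, none of which passed the test. Among the genes named by rule these were Slc39a13, Slc16a1, Slc25a39 and Slc22a23. The log2 fold change of Slc39a13 was 0.035 with upper-quartile factors and 0.014 with total counts alone, and from -0.11 to 0.079 with single samples left out. With single samples left out, Slc16a1 had -0.20 to 0.023, Slc25a39 -0.25 to 0.025 and Slc22a23 -0.0016 to 0.14. The cause was not tested. Of the 115 genes 2 had under 10 counts in a sample, and 14 share exon bases with another row.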
